A study of Mus musculus with 16 samples.

Results

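The 8 genes described here encode complement components and complement receptors, and were measured by RNA sequencing in mouse macrophages. They are C1qa, C1qb and C1qc, the A, B and C chains of C1q, then C3, Cfb (factor B) and Cfp (properdin), and the anaphylatoxin receptors C3ar1 and C5ar1. They were chosen by symbol, through the Ensembl identifiers of the count table, and make up 8 of its 43430 genes. All 8 had enough counts to be tested, among 11004 genes in all.

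Complement is a cascade of plasma and tissue proteins that tags microbes and dead cells for uptake and draws in leukocytes. C1q starts the classical pathway, properdin and factor B work in the alternative pathway, and every route meets at C3, whose cleavage releases the peptide C3a and leaves C3b on the target. Macrophages are a main source of C1q and properdin, and sense C3a and C5a through the receptors encoded by C3ar1 and C5ar1.

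The cells were bone marrow-derived macrophages, grown from C57BL/6J marrow with 20 ng/mL macrophage colony-stimulating factor and harvested on day 6. They were then kept in MEM, a defined culture medium, in 4 groups of 4 libraries each. The groups were LPS without serine, LPS with serine, untreated without serine, and untreated with serine. LPS, the lipopolysaccharide of Gram-negative bacteria, was added at 100 ng/mL for 4 h before RNA was isolated. No group carries a genetic change. The labels do not say how long serine was withheld, or whether replicates 1 to 4 are separate animals, so p-values measure only the spread between these libraries, which among replicates 2 to 4 may be technical. Same-numbered libraries of different groups deviated together and are set side by side as pairs below.

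Total counts ranged from 2871477 to 10043362 per library. Macrophage genes such as Csf1r (2076 to 3434 CPM, counts scaled to a common library size, here with the TMM factors of edgeR) and Adgre1 (1351 to 3020 CPM) were high in all 16 libraries. Replicate 4 of untreated cells without serine stood apart, with the lowest total, 12900 detected genes and 23.1% of its counts in its 20 highest genes. Replicate 1 came from male cells in every group, with 0 counts of Xist, and the other 12 libraries from female cells, so replicate 1 came from other mice than the rest, and sex and replicate 1 cannot be told apart. The 10 neutrophil markers summed to 92.7 to 146 CPM in the 4 libraries of replicate 1, against 11.1 to 35.2 CPM in the other 12.

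All 8 genes lie on the minus strand, at these positions in mm10. C1qb (136880129 to 136886187), C1qc (136889804 to 136893065) and C1qa (136895917 to 136898803) sit side by side on chromosome 4. C3 (57203970 to 57228136) and Cfb (34856374 to 34862518) are on chromosome 17, and Cfp (20925454 to 20931555) is on the X chromosome. C3ar1 (122847138 to 122856161) is on chromosome 6 and C5ar1 (16246743 to 16259540) on chromosome 7. In GENCODE, 79.5% of the exon bases of Cfb also belong to Gm20547, a gene on the same strand that was listed at 0 in every library. How reads of overlapping genes were counted is not given in the sources used here, so the level of Cfb may be understated.

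The 250 bases before the start site of C3, the member with the largest change under LPS, are shown with those of C1qb and C1qc, which did not pass the test. They are RefSeq sequences in GRCm38.p6, read 5′ to 3′ on the minus strand, at chr17:57228137-57228386, chr4:136886201-136886450 and chr4:136892915-136893164. Capitals mark every match, on either strand, to TTGCNNAA (C/EBP), TTCNNNGAA (STAT) and GAGGAA (PU.1). No matches overlapped, and no other motif was searched.

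C3: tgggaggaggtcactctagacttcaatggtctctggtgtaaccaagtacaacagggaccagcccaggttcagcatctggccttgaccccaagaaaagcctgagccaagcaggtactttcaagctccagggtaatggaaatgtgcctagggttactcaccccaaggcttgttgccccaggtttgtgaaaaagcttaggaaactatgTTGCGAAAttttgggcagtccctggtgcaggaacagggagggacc

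C1qb: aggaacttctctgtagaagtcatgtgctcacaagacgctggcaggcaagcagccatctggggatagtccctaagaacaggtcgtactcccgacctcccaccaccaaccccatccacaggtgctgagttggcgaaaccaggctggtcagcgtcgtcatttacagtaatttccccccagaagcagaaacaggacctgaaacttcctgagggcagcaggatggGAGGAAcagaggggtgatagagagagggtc

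C1qc: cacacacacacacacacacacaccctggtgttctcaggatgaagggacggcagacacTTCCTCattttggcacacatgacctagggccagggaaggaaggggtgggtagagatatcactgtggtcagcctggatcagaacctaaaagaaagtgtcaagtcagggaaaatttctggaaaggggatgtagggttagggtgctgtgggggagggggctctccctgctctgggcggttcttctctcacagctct

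The C3 window holds a C/EBP match that begins 45 bases before the start site. The C1qb window has a PU.1 match that begins 30 bases before its start site, and the C1qc window 1 that begins 193 bases before. These distances count from the RefSeq start sites. For C1qc that site lies inside the gene as positioned above, so the part of its window up to position 136893065 belongs to the gene there. Of the 32851 RefSeq windows of this length, 9.56% hold the C/EBP motif, 23.3% the PU.1 motif and 7.02% the STAT motif, which had no match in the windows of these 3 genes. The table gives a window for 6 of the 8 members, and those of Cfp, C3ar1 and C5ar1 hold no match to any of the 3 motifs. A match describes letters only.

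Per length of exon, C1qb was the most abundant of the 8 genes in every group and Cfb the least. C1qb averaged 1321 RPKM (the CPM per kb of exon) with LPS and no serine, 1471 RPKM with LPS and serine, 1245 RPKM untreated without serine and 1180 RPKM untreated with serine. Its lowest library lay above the highest library of every other member in 3 of the groups. In untreated cells without serine its lowest library, at 792 RPKM, lay below replicate 4 of Cfp, at 810 RPKM. C1qc was at 433 RPKM with LPS and no serine, 481 RPKM with LPS and serine, 472 RPKM untreated without serine and 444 RPKM untreated with serine. C3ar1 was at 447, 440, 307 and 350 RPKM in the same groups, and Cfp at 314, 336, 399 and 276 RPKM. The order of the means of these 3 genes differed between groups, and neighbours in the order overlapped in every group. In untreated cells without serine the mean of Cfp lay above that of C3ar1, but Cfp was the higher in 1 of 4 libraries only, replicate 4. C5ar1 was lower, at 114 to 146 RPKM.

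C3 and Cfb stood at other levels with LPS than without it. In untreated cells C3 was above Cfb alone, at 27.9 RPKM without serine and 30.5 RPKM with it, below every library of C5ar1. With LPS it lay between Cfp and C1qa, at 255 RPKM without serine and 284 RPKM with it, and overlapped both. Cfb had 9.06 RPKM with LPS and no serine and 10.5 RPKM with LPS and serine, against 1.45 and 1.55 RPKM in the untreated groups without and with serine.

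**Figure D1:**
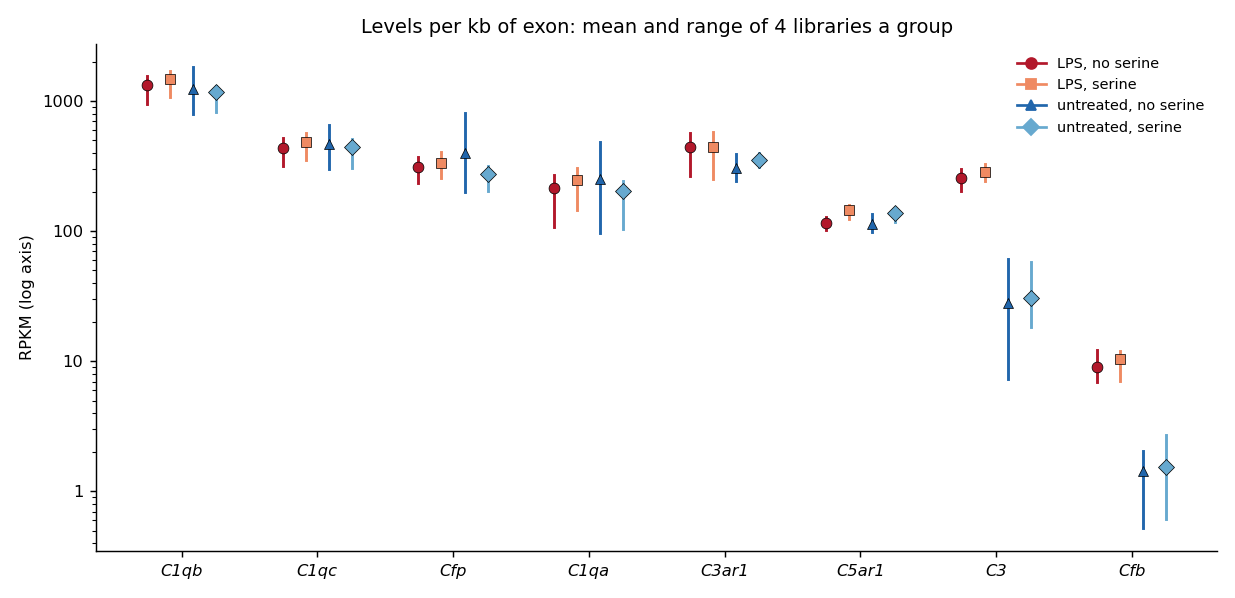
Levels per kb of exon (RPKM, log axis) of the 8 complement genes in the 4 groups; symbols are means and bars the range of 4 libraries. C1qb leads in all 4 groups, at 1180 to 1471 RPKM, and C3 and Cfb are the genes whose LPS and untreated ranges lie apart.

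The first comparison asked what LPS did in medium with serine. C3 and Cfb rose, and none of the other 6 members passed the test in edgeR's quasi-likelihood model at an adjusted p of 0.05. The 2 of 8 members that rose compare with 27.6% of all genes tested, and the 0 that fell with 28.2%. The members' median log2 fold change was 0.30, that of all genes -0.029. Untreated cells with serine are part of this comparison and of the serine comparison in untreated cells, so these share libraries.

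C3, the protein at which the pathways meet, had 1506, 1253, 1698 and 1394 CPM in replicates 1 to 4 with LPS and serine, against 301, 94.3, 122 and 111 CPM in untreated cells with serine. Every LPS library lay far above its same-numbered untreated library, and the groups did not overlap. The log2 fold change was 3.22 ± 0.50 (SE, n = 4 each; edgeR adjusted p = 3.35e-05), a 9.32-fold rise. Replicate 1 of the untreated cells stood above the others, so its pair differed least, by 2.32 on the log2 scale, against 3.65 to 3.80 in the other pairs.

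Cfb, whose product joins C3b in the enzyme that cleaves more C3, had 33.5, 19.9, 31.3 and 33.9 CPM with LPS and serine, against 7.68, 1.74, 4.53 and 3.62 CPM in untreated cells with serine. All LPS libraries were above all untreated ones. Its log2 fold change was 2.74 ± 0.39 (edgeR adjusted p = 1.26e-05), or 6.69-fold, on only 17 to 76 counts per untreated library. C3 and Cfb remained higher with LPS, past the threshold, in each of 26 alternative fits, at 2.60 to 3.75 for C3 and 2.12 to 3.18 for Cfb.

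Stromal cells also make C3, and the summed level of 10 stromal markers was higher on average with LPS. It was 23.4 to 49.6 CPM with LPS and serine and 1.95 to 25.8 CPM in untreated cells with serine, with 9 of the 10 markers detected in each group. Of these markers Pdgfrb reached the highest level in any of the 16 libraries, and Col1a2 the next highest, 11.6 CPM. Summed over the libraries, Pdgfrb had 971 counts and Col1a2 652. Which markers carried the difference with LPS was not tested. Marker sums of 2 other cell types stood further apart. The 10 dendritic cell markers summed to 13.1 to 17.7 CPM with LPS and serine and 2.01 to 3.64 CPM in untreated cells with serine. In each group 9 of 10 were detected. Over the 16 libraries Xcr1 reached 11.9 CPM, and the next highest of these markers, Zbtb46, 3.65 CPM. The 8 mast cell and basophil markers summed to 21.4 to 28.6 CPM with LPS and serine and 0.503 to 0.819 CPM in untreated cells with serine. Hdc, histidine decarboxylase, reached 27.6 CPM of that sum, while the defining mast cell genes Fcer1a and Mcpt4 were at 0 in all 16 libraries. The part of these cell types in the C3 and Cfb results was not tested. In bulk RNA, more cells of a type and more RNA per cell cannot be told apart.

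The C1q chains had levels close to those of untreated cells. C1qb, the chain with the most RNA, had 1615, 1165, 1848 and 1774 CPM with LPS and serine, against 1412, 902, 1413 and 1407 CPM in untreated cells with serine. Each LPS library was above its same-numbered untreated library, while the groups overlapped because replicate 2 was low in both. The log2 fold change of 0.32 ± 0.24 missed the threshold (edgeR adjusted p = 0.276). A block for replicate number over all 16 libraries gave 0.32 ± 0.12, which passed (adjusted p = 0.0297), so 3 members rose in that fit beside 29.7% of all genes. C1qa differed by 0.29 ± 0.41 and C1qc by 0.11 ± 0.24, and neither passed in these fits. With the block fitted within the 8 libraries compared, a setting chosen after the data were seen, 5 members rose, beside 35.7% of genes. They were C3, Cfb, C1qa (0.30 ± 0.07), C1qb (0.31 ± 0.06) and Cfp (0.27 ± 0.06).

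Per length of exon, C1qb made up 61.7% to 69.1% of the C1q RNA over the 16 libraries, C1qc 20.8% to 25.5% and C1qa 7.91% to 16.3%. The C1qa share was lowest in replicate 2 of every group and highest in replicate 4 of untreated cells without serine. These shares do not depend on how libraries are scaled. C1qc took 21.9% ± 0.7 of the total with LPS and serine and 24.3% ± 0.6 in untreated cells with serine (SD, n = 4 each), and the groups did not overlap. The exact two-sided permutation test gave p = 0.0286, the smallest that 70 arrangements allow, and 0.343 after Benjamini-Hochberg adjustment over the 12 share tests made. Without serine the C1qc share was 22.0% ± 1.0 with LPS and 24.3% ± 1.6 untreated, and the groups overlapped (exact permutation p = 0.0857, adjusted p = 0.343). By pairs of equal replicate number the C1qc share was lower with LPS in 4 of 4 pairs in each medium, with differences of -2.91 to -1.92 percentage points with serine and -3.81 to -0.198 without it. The C1qb share was higher with LPS in 4 of 4 pairs in each medium, by 2.19 points on average with serine and 3.49 without it. The exact paired permutation test gave p = 0.125 for each of these 4, the smallest that 4 pairs allow, and 0.3 after adjustment over 12 tests.

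Properdin, the stabiliser of the alternative pathway convertase, had 548, 446, 704 and 632 CPM of Cfp with LPS and serine, against 501, 357, 549 and 511 CPM in untreated cells with serine. It was higher with LPS in 4 of 4 pairs, but the difference of 0.28 ± 0.33 was within the spread between libraries (edgeR adjusted p = 0.499).

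C3ar1, the receptor for C3a, split by replicate. It had 1090, 1810, 2494 and 2186 CPM with LPS and serine, against 1351, 1385, 1730 and 1567 CPM in untreated cells with serine. The level was higher with LPS in replicates 2 to 4 and lower in replicate 1, whose LPS library held 0.498 of the median of the others. The log2 fold change was 0.33 ± 0.25 (edgeR adjusted p = 0.288), and 0.44 ± 0.20 without replicate 1 of every group (adjusted p = 0.0948). C5ar1, the receptor for C5a, was higher with LPS in all 4 pairs, but by only 0.09 ± 0.13 (edgeR adjusted p = 0.592), with a 95% interval of -0.18 to 0.36. In medium with serine 6 of 8 members were higher with LPS in all 4 pairs, beside 37% of all genes tested. In medium without serine only 2 of 8 were, C3 and Cfb, beside 30.9% of all genes.

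**Figure D2:**
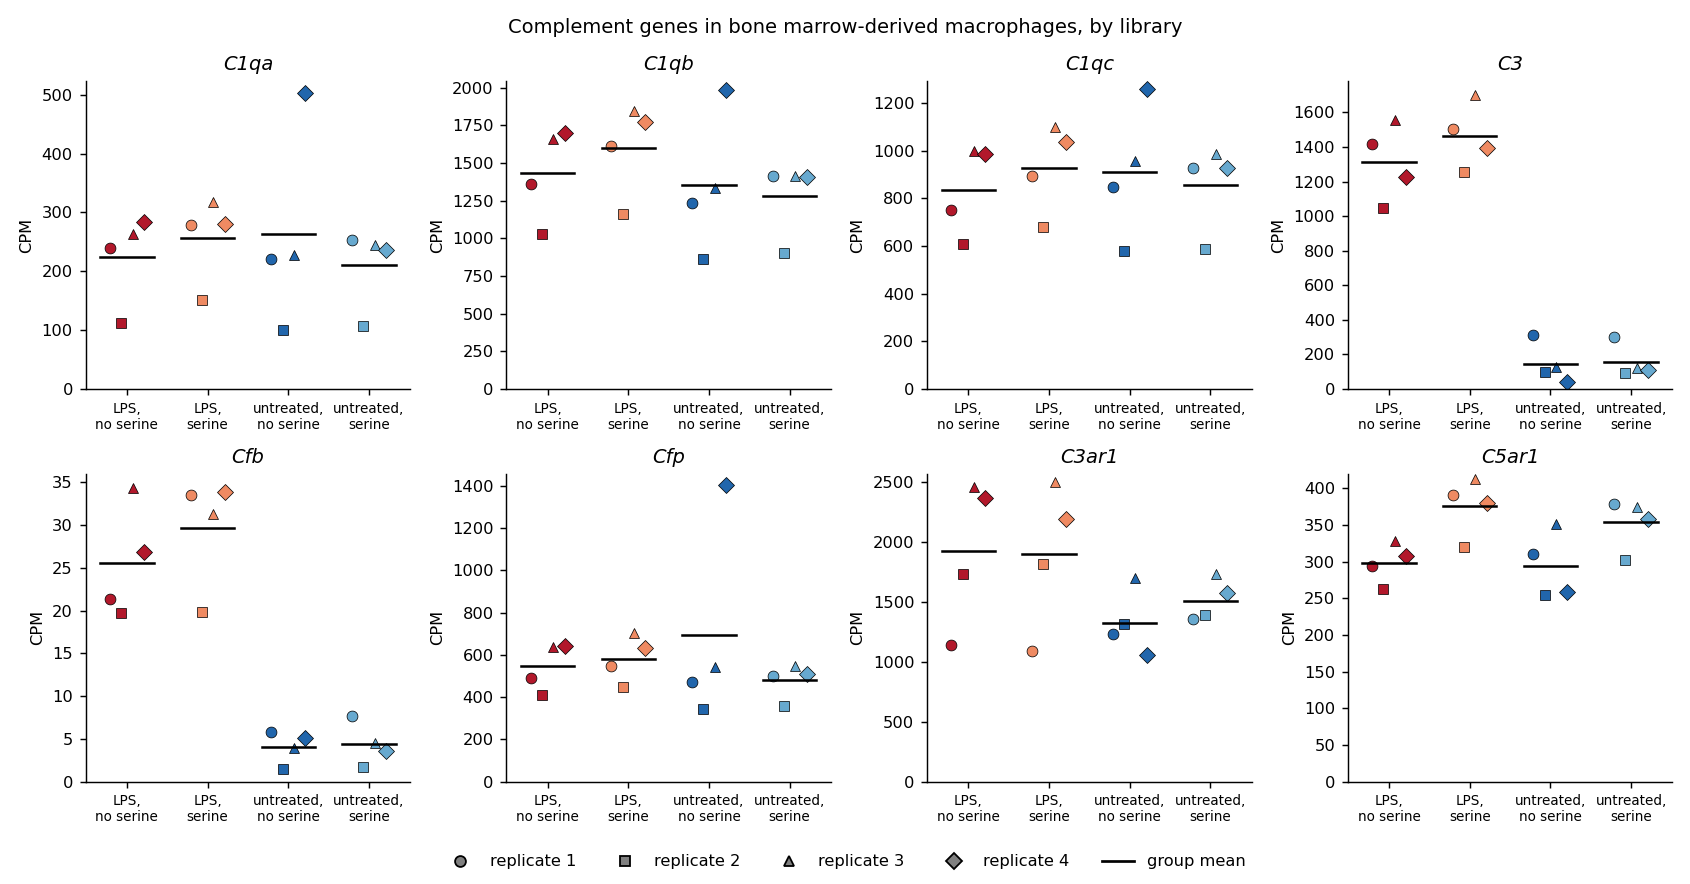
CPM of the 8 genes in the 16 libraries by group, a panel per gene with its own axis from 0; symbols mark replicate numbers and bars the group mean. C3 and Cfb are high in all 8 LPS libraries, replicate 2 (squares) is low for the C1q genes in every group, and replicate 4 of untreated cells without serine reaches 1405 CPM for Cfp.

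The directions given for the members other than C3 and Cfb rest on the scaling. TMM factors were 0.793 to 0.861 in LPS libraries with serine and 1.24 to 1.27 in untreated libraries with serine. Scaling to total counts instead moved the median log2 fold change of all genes to -0.64 with serine and to -0.69 without it. On that scale C1qc (-0.51 ± 0.20, edgeR adjusted p = 0.0334) and C5ar1 (-0.53 ± 0.14, adjusted p = 0.00284) were lower with LPS in medium with serine, where 2 of 8 members and 58.2% of all genes fell. Without serine 3 of 8 members fell, beside 59.7% of all genes, namely C1qc (-0.67 ± 0.20), Cfp (-0.85 ± 0.28) and C5ar1 (-0.55 ± 0.14). With the block on total counts 3 members fell with serine and 5 without it, beside 61.3% and 61.9% of all genes. Relative to the median of all genes the scalings gave nearly the same values, because a change of scaling shifts all genes almost equally. The likeness is therefore no separate check of the directions. C5ar1 lay 0.12 above that median with TMM factors and 0.11 above it with total counts, and C3 lay 3.25 and 3.24 above it.

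LPS was compared next in medium without serine. Again C3 and Cfb rose and 0 members fell, where 27.1% of all genes rose and 29.7% fell, and the members' median of 0.053 stood beside -0.12 for all genes. C3 had 1419, 1049, 1555 and 1225 CPM with LPS, against 314, 96.0, 126 and 37.4 CPM in untreated cells, both without serine. The groups did not overlap, and the log2 fold change was 3.18 ± 0.49 (edgeR adjusted p = 3.98e-05), or 9.08-fold. The pairs spread from 2.18 in replicate 1, where the untreated level was high, to 5.02 in replicate 4, where it was low.

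Cfb had 21.3, 19.8, 34.4 and 26.9 CPM with LPS and no serine, against 5.82, 1.48, 3.98 and 5.06 CPM in untreated cells without serine. The groups were apart again and the log2 fold change was 2.67 ± 0.40 (edgeR adjusted p = 2.51e-05). In the authors' deposited table the log2 fold changes of C3 were 3.22 with serine and 3.19 without it, and those of Cfb 2.74 and 2.67. The stromal marker sum was 15.0 to 46.9 CPM with LPS and no serine and 1.01 to 27.6 CPM untreated, with 8 of 10 markers detected in each group. The dendritic cell sum was 11.6 to 16.4 CPM with LPS and no serine and 3.03 to 3.85 CPM untreated, and the mast cell and basophil sum 16.1 to 20.2 CPM and 0 to 2.31 CPM. Their part in these results was not tested.

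C3ar1 came closest to the threshold among the rest. It had 1140, 1733, 2454 and 2363 CPM with LPS and no serine, against 1230, 1310, 1700 and 1052 CPM in untreated cells without serine. Replicates 2 to 4 were higher with LPS and replicate 1 was lower, as in medium with serine. The pairs of replicates 1 to 4 differed by -0.11, 0.40, 0.53 and 1.17 on the log2 scale. The log2 fold change of 0.54 ± 0.25 missed the threshold (edgeR adjusted p = 0.0786). It passed at 0.49 ± 0.18 with the replicate block (edgeR adjusted p = 0.0282), where 3 members rose beside 29.4% of all genes. With the block and without replicate 4 of untreated cells without serine, C3ar1 did not pass. It passed at 0.66 ± 0.20 without replicate 1 of every group (edgeR adjusted p = 0.0179). Of 16 fits that left out 1 library each, 3 called it. These were the fits without LPS replicate 1 of either medium and without untreated replicate 3 without serine, and the 16 values ran from 0.40 to 0.72. On total counts it was -0.05.

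The signs of C1qa and of Cfp, the properdin gene, turned on replicate 4 of the untreated cells without serine. That library had 503 CPM of C1qa against 101 to 227 CPM in the rest of its group, and 1405 CPM of Cfp against 346 to 544 CPM. With it, C1qa (-0.22 ± 0.41) and Cfp (-0.34 ± 0.33) had negative log2 fold changes, and without it positive ones, at 0.30 ± 0.39 and 0.26 ± 0.20. None of these 4 values passed the test. With the replicate block and without that library both passed, at 0.21 ± 0.07 for C1qa (edgeR adjusted p = 0.013) and 0.21 ± 0.06 for Cfp (adjusted p = 0.00626). In that fit 5 members rose without serine and 5 with it, C1qa, C1qb and Cfp beside C3 and Cfb, where 35% and 36.5% of all genes rose. With all 16 libraries and no block, C1qb (0.09 ± 0.24, edgeR adjusted p = 0.774) and C1qc (-0.12 ± 0.24, adjusted p = 0.672) did not pass without serine.

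**Figure D3:**
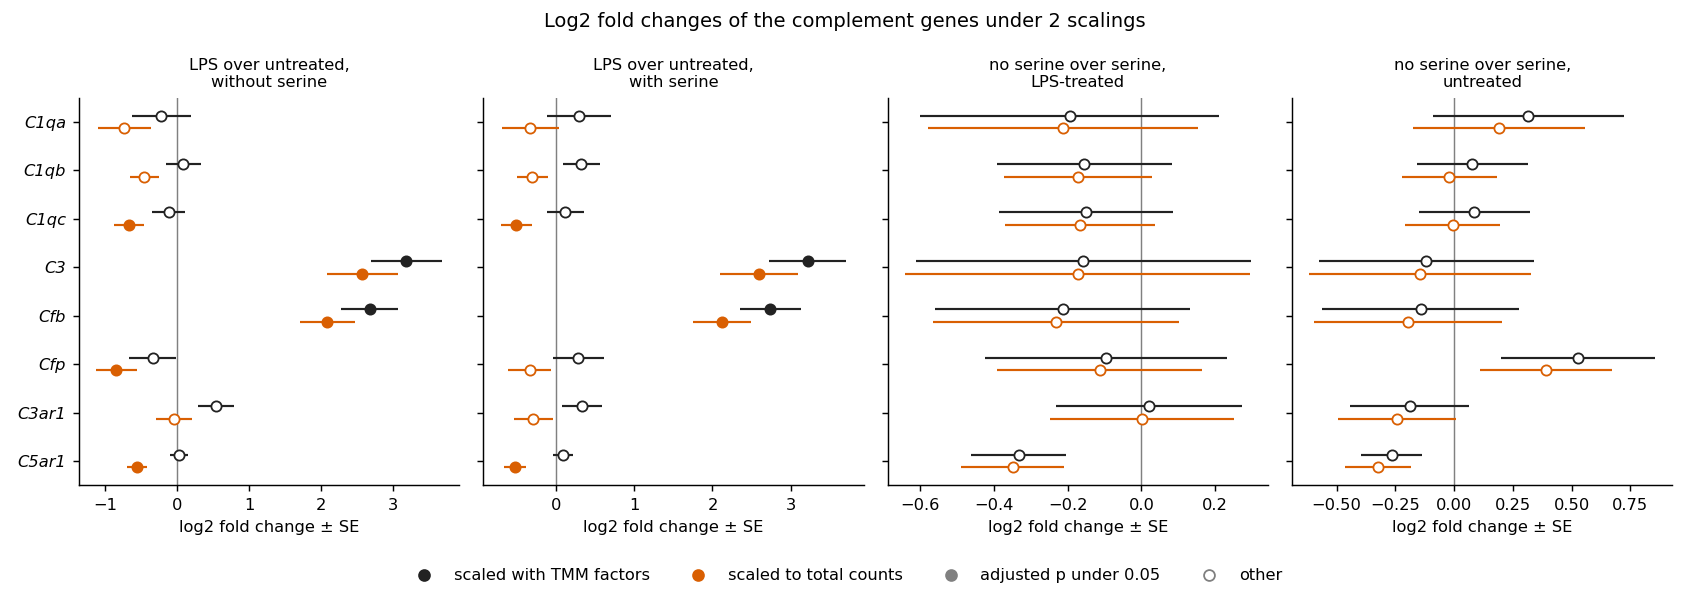
Log2 fold changes ± SE of the 8 genes from edgeR in 4 comparisons, scaled with TMM factors (dark) and to total counts (orange); filled symbols have an adjusted p under 0.05. C3 and Cfb stand at 2.08 to 3.22 for LPS on either scale, and the other 6 genes lie lower on the total-count scale in the LPS panels. The serine panels have narrower axes.

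Serine withdrawal was compared within LPS-treated cells and within untreated cells. In LPS-treated cells 0 of 8 members passed in edgeR, where 0.0545% of all genes rose and 0.00909% fell, and 0 passed in DESeq2. At an unadjusted p under 0.05 there were 676 genes and 1 member, C5ar1. The members' median log2 fold change was -0.16, that of all genes 0.0032. C1qb, C1qc, C3 and C5ar1 were lower without serine in all 4 pairs, 4 of 8 members, beside 16% of all genes tested.

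C5ar1 had 294, 262, 329 and 308 CPM with LPS and no serine, against 391, 320, 412 and 380 CPM with LPS and serine. Each library without serine lay below its same-numbered library with serine, by 0.29 to 0.41 on the log2 scale, though the groups overlapped at their edges. The log2 fold change was -0.33 ± 0.13 (edgeR unadjusted p = 0.0203, adjusted p = 0.588), a level 0.794 of that with serine. With the replicate block it was -0.33 ± 0.09 (adjusted p = 0.117), and it passed with the block when replicate 4 of untreated cells without serine was left out (-0.33 ± 0.05, adjusted p = 0.000318). In that fit 2 members fell, C5ar1 and C1qa (-0.22 ± 0.06), beside 3.32% of all genes.

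A block fitted within the 8 LPS libraries alone, chosen after the data were seen, called 6 of 8 members lower, beside 10.5% of 9989 genes. These were C5ar1 (-0.34 ± 0.04, edgeR adjusted p = 1.21e-10), C1qa (-0.22 ± 0.05), C1qb (-0.17 ± 0.03), C1qc (-0.16 ± 0.03), C3 (-0.17 ± 0.03) and Cfp (-0.11 ± 0.03). These differences were small beside that of C3 under LPS. C3 with LPS was 1312 ± 222 CPM without serine and 1463 ± 188 CPM with it (SD, n = 4 each).

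In untreated cells 0 of 8 members passed, where 0% of all genes did in edgeR and 13 genes, but no member, did in DESeq2. At an unadjusted p under 0.05 edgeR gave 548 genes and 0 members. The members' median was -0.021, that of all genes 0.012. C5ar1 was again lower in all 4 pairs, at 311, 254, 351 and 259 CPM without serine, against 379, 302, 374 and 358 CPM with serine. Its log2 fold change was -0.27 ± 0.13 (edgeR unadjusted p = 0.057, adjusted p = 0.816). C3ar1 was lower in all 4 pairs too, by 0.03 to 0.58, and these 2 of 8 members stand beside 9.91% of all genes.

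C3 in untreated cells barely differed between the media in replicates 1 to 3, whose pairs lay between 0.03 and 0.06 on the log2 scale. Replicate 4 differed by -1.55, with 37.4 CPM without serine and 111 CPM with it. The fold change of -0.12 ± 0.46 (edgeR adjusted p = 0.957) had a 95% interval of -1.09 to 0.85, and without that library it was 0.19 ± 0.42.

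The difference between the 2 withdrawals was tested as an interaction. It passed for 0 of 8 members and 0% of genes in edgeR, where 253 genes and 0 members had an unadjusted p under 0.05, and for 1 gene and 0 members in DESeq2. For C5ar1 it was -0.07 ± 0.18 (edgeR adjusted p = 0.973), so its values with and without LPS were not shown to differ.

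**Figure D4:**
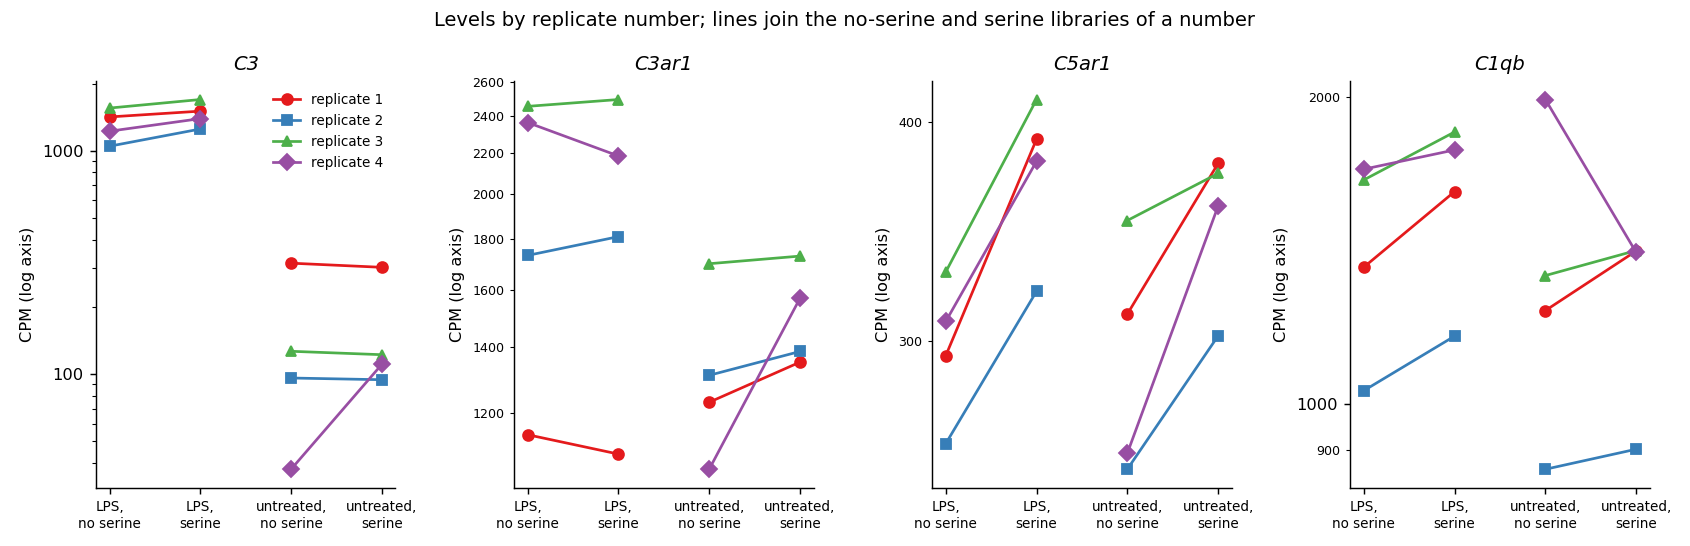
CPM (log axis) of C3, C3ar1, C5ar1 and C1qb by replicate number; lines join the libraries without and with serine of the same number, with LPS on the left of each panel. All 8 lines of C5ar1 slope up towards the medium with serine, C3 of replicate 1 is the highest of the untreated libraries, and C3ar1 of replicate 1 is the lowest of the LPS libraries.

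Replicate 1 differed from the others in opposite senses for C3 and C3ar1. In untreated cells its C3 level was 3.27 times the median of the other 3 without serine and 2.72 times with serine. With LPS it was within the range of the others, at 1.16 and 1.08 times the median. Its C3ar1 level with LPS was 0.482 of the median of the others without serine and 0.498 with it. The part of the male sex or of the higher neutrophil markers of replicate 1 in these levels was not tested. Without replicate 1 of every group the LPS log2 fold change of C3 was 3.83 ± 0.37 without serine and 3.70 ± 0.36 with it.

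Other genes of the pathway came from 4 lists of 51 complement genes, of which 14 had no count and 16 could be tested. Of the 8 listed genes of the alternative and terminal pathway, from factor D to C9, 0 had enough counts. With serine LPS raised 5 and lowered 3 of the 16, beside 27.6% and 28.2% of all genes. Without serine it raised 4 and lowered 3, beside 27.1% and 29.7%, so neither count stands far from that of all genes. Their median log2 fold change was -0.14 with serine and 0.02 without it, beside -0.03 and -0.12 for all genes. On total counts 0 rose and 9 fell with serine, beside 15.1% and 58.2% of all genes. Without serine 1 rose and 7 fell, beside 15.3% and 59.7%.

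The receptors and C1q binding proteins held the largest falls. C5ar2, the second C5a receptor, was at 1.97 ± 0.75 CPM with LPS and serine and 12.5 ± 1.87 CPM in untreated cells with serine. Its log2 fold change was -2.63 ± 0.37 with serine (edgeR adjusted p = 1.38e-05) and -3.44 ± 0.42 without it, and it fell on total counts as well. Without serine C5ar2 was near the floor with LPS, at 0.99 ± 0.84 CPM and 0.152 CPM in the lowest library. Untreated cells without serine had 10.7 ± 2.96 CPM, and the pairs without serine ran from -4.79 to -1.86. Lrp1, an endocytic receptor that binds many ligands, fell by 1.45 on the log2 scale with serine (SE 0.24, edgeR adjusted p = 7.71e-05) and by 0.92 without it (SE 0.24, adjusted p = 0.00365). Without serine the groups overlapped, and the pair of replicate 4 was higher with LPS, by 0.29, against -1.21 to -1.04 in the other pairs. With replicate 4 of untreated cells without serine left out, the log2 fold change of Lrp1 without serine was -1.18 ± 0.08. C1qbp, a mitochondrial protein first known for binding C1q, fell by 0.74 and 0.55 with and without serine. These 3 genes fell on either scale and in all 16 fits without 1 library. Colec12, a scavenger receptor of the collectin family, is named because the replicate block changed its call. It missed the threshold at -0.79 ± 0.46 with serine (edgeR adjusted p = 0.159) and -0.88 ± 0.47 without it (adjusted p = 0.119). With the block it fell, by 0.84 (SE 0.12, adjusted p = 3.71e-05) and 0.91 (SE 0.12, adjusted p = 2.4e-05). Itgam, the alpha chain of complement receptor CR3, likewise missed it without serine at 0.39 ± 0.19 (adjusted p = 0.0893) and rose with the block, by 0.41 ± 0.17 (adjusted p = 0.0498). On total counts Itgam had a negative value. Cd93, from the same list, missed the threshold at -0.55 ± 0.24 with serine (edgeR adjusted p = 0.0644) and -0.31 ± 0.24 without it (adjusted p = 0.287). Without replicate 4 of untreated cells without serine, Cd93 passed in both media. It was then at -0.55 ± 0.10 with serine (edgeR adjusted p = 0.000206) and -0.56 ± 0.11 without it (adjusted p = 0.000348).

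Among the genes that rose, C1ra, a protease of the C1 complex, was at 7.61 ± 2.45 CPM with LPS and serine and 3.72 ± 0.42 CPM in untreated cells with serine (log2 fold change 1.03 ± 0.26, edgeR adjusted p = 0.00326). Without serine it rose by 1.43 ± 0.28 and passed on total counts there, at 0.83. Cr1l, the mouse complement regulator Crry, rose by 0.41 ± 0.10 with serine and 0.53 ± 0.10 without it, and had small negative values on total counts. Itgax, the alpha chain of complement receptor CR4, rose by 0.88 ± 0.27 and 0.69 ± 0.28, and not past the threshold on total counts. Its call without serine was lost in 10 of 16 fits that left out 1 library. With serine alone the ficolin gene Fcna (0.66 ± 0.25) and the decay-accelerating factor Cd55 (0.78 ± 0.28) passed, and without serine alone the integrin chain Itgb2 (0.39 ± 0.14). In fits without 1 library the calls held in 12 of 16 for Fcna, 10 of 16 for Cd55 and 14 of 16 for Itgb2. Without replicate 4 of untreated cells without serine, Itgb2 passed in both media. It then rose by 0.23 with serine (edgeR adjusted p = 0.00589) and by 0.23 without it (adjusted p = 0.0103). With all 16 libraries on total counts, Itgb2 was at -0.38 with serine and -0.20 without it, and neither value passed. Whether Fcna, Cd55 and Itgb2 differ between the media was tested by the same interaction. That test passed for 0 of the 16 genes (edgeR adjusted p = 0.95 for each of these 3).

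The genes whose log2 CPM followed each member most closely over the 16 libraries differed between members. For C3 they were Ifi206, Atxn7 and Samd9l, with Pearson r of 0.992 to 0.995, and for Cfb BE692007, Rtp4 and Mmp14, with 0.980 to 0.986. For C1qa they were Apoe, Trf and Ctsh (0.928 to 0.959), for C1qb Ly86, Trf and Serinc3 (0.912 to 0.949), and for C1qc Trf, Serinc3 and Itm2b (0.923 to 0.954). For Cfp they were Itm2b, Dazap2 and Cst3 (0.952 to 0.965) and for C3ar1 they included Apba1 (0.913) and Rbms2 (0.906). C5ar1 had no such close neighbour, with Ergic3 first at 0.831. These values share libraries, scaling and the LPS grouping, and describe likeness of pattern only.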

How the data were processed

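The authors deposited whole-number read counts per Ensembl gene, for 43430 genes in 16 libraries. HTSeq, STAR, SAMtools, Trimmomatic 0.33, edgeR and the mm10 build are named, per the submitters' processing notes. Per the labels, libraries were made with a kit that does not mark strand, so reads of genes overlapping on opposite strands are not told apart. A further 24 per-sample columns were not used. Log2 fold changes and adjusted p-values printed as the authors' were copied from the authors' deposited tables.

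The counts were fitted with edgeR 4.0.16 in R 4.3.3. Its default filter left 11004 genes, libraries were scaled by TMM, and 1 mean per group was estimated over all 16 libraries by robust quasi-likelihood, after a check on simulated data. Tests are two-sided, with Benjamini-Hochberg adjustment over all genes tested and a threshold of 0.05. Levels are CPM on TMM-adjusted library sizes, and likeness used log2 CPM with a prior count of 2. Alternatives were DESeq2 1.42.0 factors and test, total-count scaling, no filter, the compared groups alone, a replicate block and the omission of libraries. Chain shares were compared with exact permutation tests, unpaired and paired, chosen after the values were seen.

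Gene lengths are union exons of GENCODE vM21, since the deposited length exceeded the span of 1982 genes. Positions of the 8 members were equal in both. Library deviations from the group mean, correlated over genes between equal replicate numbers, gave 0.125 to 0.66 in the 4 comparisons of 2 groups. All were above the criterion of 0.1 for pairing, which comes from these data and not from the labels. Unequal numbers gave -0.373 to 0.141, so some of them passed the criterion too. Within each comparison, every unequal-number value lay below every equal-number value. No library was a copy of another, since chi-square per degree of freedom was at least 2.04 over 120 pairs. Members and lists were chosen with earlier results of these data known. The named genes are the 8 members, the listed complement genes that passed in an LPS comparison with a mean of at least 5 CPM in a group or passed in a serine comparison, and the 3 genes most like each member, of which 1 is not reported here. Colec12, Itgam and Cd93 were named after their values were seen.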

Additional observations from a re-analysis of the deposited data

Results flagged for a closer look

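In 4 of 32 gene and group combinations 1 of 4 libraries lay far from the others, by a criterion that chance meets in about 1 of 20 groups. All 4 were in untreated cells with serine. Replicate 2 was low there for the C1q chains, with 108 CPM of C1qa, 902 CPM of C1qb and 587 CPM of C1qc. The other libraries held 236 to 252 CPM of C1qa, 1407 to 1413 CPM of C1qb and 926 to 988 CPM of C1qc. Replicate 2 was the lowest of its group in all 4 groups for C1qa, C1qb, C1qc, Cfb, Cfp and C5ar1, and in 0 of 4 for C3ar1. Replicate 1 was high for C3, at 301 CPM against 94.3 to 122 CPM in the other libraries.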

How the results depend on the processing

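The counts of members called kept within 1.5 times of those reported in most of 26 alternatives. On total counts 2 members fell with LPS and serine and 3 without serine, and with the replicate block on total counts 3 and 5. Values that turned and passed on total counts were C1qc -0.51 and C5ar1 -0.53 with serine and C5ar1 -0.55 without it. With the block on total counts they were C1qb -0.30, C1qc -0.50 and C5ar1 -0.53 with serine, and C1qb -0.44 and C5ar1 -0.54 without it. With the replicate block and without replicate 4 of untreated cells without serine, 5 members rose in each LPS comparison, C1qa (0.21) and Cfp (0.21) turned without serine, and 2 fell with serine withdrawal under LPS. The block within the compared groups gave 5 higher with LPS and serine and 6 lower with withdrawal under LPS. Over all 16 libraries and with TMM factors, the replicate block changed the calls of C1qb with serine, C3ar1 without serine, Colec12 in both media and Itgam without serine, and no other among the 8 members and the 16 other complement genes. Leaving out single libraries gave 2 to 2 and 2 to 3 members higher and 0 lower in the LPS comparisons and 0 in the withdrawals. The causes were not tested. The block on total counts, the block within the compared groups and the paired test of chain shares were added after the data were seen. Cfb, at 15 to 76 counts in untreated libraries, is limited by depth.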
